A study of Mus musculus with 48 samples.

Results

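The early B lymphocyte development genes described here were 8 genes chosen by symbol, Rag1, Rag2, Dntt, Vpreb1, Vpreb3, Igll1, Ebf1 and Cd93, out of the 55486 genes of the deposited count table. They were read in 28 of the 48 mouse RNA sequencing libraries of a study on loss of QPCTL, a glutaminyl cyclase of the Golgi. The libraries were 8 of bone marrow and 8 of spleen, each a whole organ taken without inoculation from animals aged 10 to 15 weeks, and 12 of CD45-negative cells sorted from B16F10 melanomas on day 14 after inoculation. By the sample labels, 4 libraries of each organ came from homozygous QPCTL-KO mice and 4 from wild-type littermates, all listed under the strain name QPCTL-KO C57/Bl6JR. Of the tumour libraries, 6 came from knockout mice carrying knockout B16F10 cells and 6 from wild-type littermates carrying wild-type B16F10 cells, so that host and tumour always shared the genotype. The columns of the count table give an organ and a running number but no genotype, so each group below mixes both genotypes, and the members were not compared by genotype in bone marrow. The 20 lymph node columns do not say whether the node came from a tumour-bearing mouse and are not analysed here. Whether libraries of a group came from separate animals is not stated on the columns, so p-values measure the spread between these libraries, which may be technical.

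Lymphocytes of the B lineage arise in bone marrow from progenitors that join gene segments of the immunoglobulin heavy chain, and then of the light chain, by V(D)J recombination. Rag1 and Rag2 encode the recombinase that cuts the segments, and Dntt encodes terminal deoxynucleotidyl transferase, which adds nucleotides at the joints. Vpreb1 and Igll1 encode the surrogate light chain, which pairs with a new heavy chain in the pre-B receptor, and Vpreb3 encodes a related protein of B lineage cells. Ebf1 encodes a transcription factor that commits progenitors to the B lineage and stays on in mature B cells. Cd93 encodes a surface protein that marks immature B cells, and is also known from endothelium and from myeloid progenitors. In mice, bone marrow holds these dividing and rearranging precursors, while spleen holds mainly later B cells.

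The members fell into neighbours and singletons on GRCm38. Rag2 (ENSMUSG00000032864, chr2:101624718-101632529, plus strand) and Rag1 (ENSMUSG00000061311, chr2:101638282-101649501, minus strand) face each other. Igll1 (ENSMUSG00000075370, chr16:16860671-16863985) and Vpreb1 (ENSMUSG00000059305, chr16:16868403-16870843) lie next to each other on the minus strand. Dntt (ENSMUSG00000025014, chr19:41029275-41059525, plus strand), Vpreb3 (ENSMUSG00000000903, chr10:75943057-75949657, plus strand), Ebf1 (ENSMUSG00000057098, chr11:44617317-45008091, plus strand) and Cd93 (ENSMUSG00000027435, chr2:148436640-148443563, minus strand) lie apart from the other members. Exons of Vpreb1 share 108 bases with Top3b on the opposite strand, exons of Rag2 share 208 bases with B230118H07Rik, and the other 6 members share none with a coding gene of the opposite strand.

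RefSeq promoter windows of GRCm38.p6, running from 250 bases before to 50 bases after a transcript start, were held for 7 of the 8 members, with 8 windows in all. They were searched on both strands for the 10-base EBF motif, its 8-base core CCCNNGGG, which the longer motif contains, and the E box CAGGTG or CACCTG, a motif read by E proteins. The 10-base motif was in 0 of the 8 windows, against 0.904% of the 32851 windows of the reference table, and the core was in 1, that of Igll1, against 13.7%. An E box was in 3 windows, against 20.2% of the table, and its letters cannot overlap those of a full core. These 3 are shown because they belong to a recombinase gene and to both surrogate light chain genes. Each line gives the 250 bases before the start, 5′ to 3′ along the gene, with the E box in capitals. It begins 8 bases before the start in Igll1, 135 in Rag1 and 88 in Vpreb1. The start is that of RefSeq, and by the gene coordinates given above the Vpreb1 line lies within the gene.
Rag1 (chr2:101649533-101649782, minus strand): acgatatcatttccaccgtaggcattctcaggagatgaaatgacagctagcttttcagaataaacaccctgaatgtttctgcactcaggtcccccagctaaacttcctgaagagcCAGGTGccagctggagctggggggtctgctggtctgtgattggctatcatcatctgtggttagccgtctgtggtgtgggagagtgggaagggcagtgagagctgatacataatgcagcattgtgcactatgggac
Igll1 (chr16:16863986-16864235, minus strand): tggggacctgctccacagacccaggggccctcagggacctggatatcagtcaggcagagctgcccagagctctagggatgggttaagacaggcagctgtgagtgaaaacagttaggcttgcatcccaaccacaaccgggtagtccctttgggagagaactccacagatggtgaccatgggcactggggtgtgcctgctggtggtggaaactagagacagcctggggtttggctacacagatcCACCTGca
Vpreb1 (chr16:16869256-16869505, minus strand): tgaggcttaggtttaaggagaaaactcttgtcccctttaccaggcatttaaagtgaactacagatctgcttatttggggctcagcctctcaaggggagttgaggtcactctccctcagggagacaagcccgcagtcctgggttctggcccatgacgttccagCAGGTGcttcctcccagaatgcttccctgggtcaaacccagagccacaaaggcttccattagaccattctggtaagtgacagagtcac
A match describes the letters only, and windows without one say nothing on binding.

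Counts per library were few for genes of this kind. The totals below are counts assigned to genes, which is not the depth of sequencing. Counts per library ran between 227240 and 637985 in bone marrow (median 424438), between 219229 and 626316 in spleen (median 321211), and between 54117 and 510363 in tumour cells (median 305146), so 1 count was worth 1.57 to 18.5 CPM, the count scaled to a library total of 1000000. Most counts lay on genes that face another gene: 69.98% of them fell in the 5000 genes that share at least 50 exonic bases with a coding gene of the opposite strand, and 46 of the 50 most abundant genes were of that class. Of 1462 antisense genes with a coding partner, 950 had more counts than the partner. The mitochondrial gene mt-Nd6, which alone among those coding for protein is read from the light strand, had 107125 counts, against a median of 2845.5 for 6 heavy-strand genes. Library preparation kept the strand, by the labels, and the strand setting of the counting is not given in the sources used here. High counts on antisense genes and on mt-Nd6 are what counting on the strand opposite to the transcript would give. A member's count below is therefore the number the authors assigned to the gene, and cannot be taken as its sense expression. Whether this lowered the totals, and how it changes the ratios between groups, was not tested.

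Markers of other cell types differed between the 3 groups. The mature B list summed to between 127 and 256 CPM in bone marrow, between 165 and 1665 CPM in spleen and between 3.06 and 111 CPM in tumour cells. The myeloid and granulocyte list summed to between 15640 and 39180 CPM in bone marrow, between 543 and 2349 CPM in spleen and between 351 and 579 CPM in tumour cells, in which 12 of its 14 genes had no count and Csf1r gave most of the sum (428 ± 71.4 CPM). Melanoma genes summed to between 1848 and 6343 CPM in tumour cells. Spleen libraries stood apart from one another: library 6 had the lowest mature B sum and the highest erythroid sum, 6083 CPM, and library 8 had the next lowest mature B sum, 442 CPM. Within each group, no pair of libraries agreed within sampling noise.

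**Figure D1:**
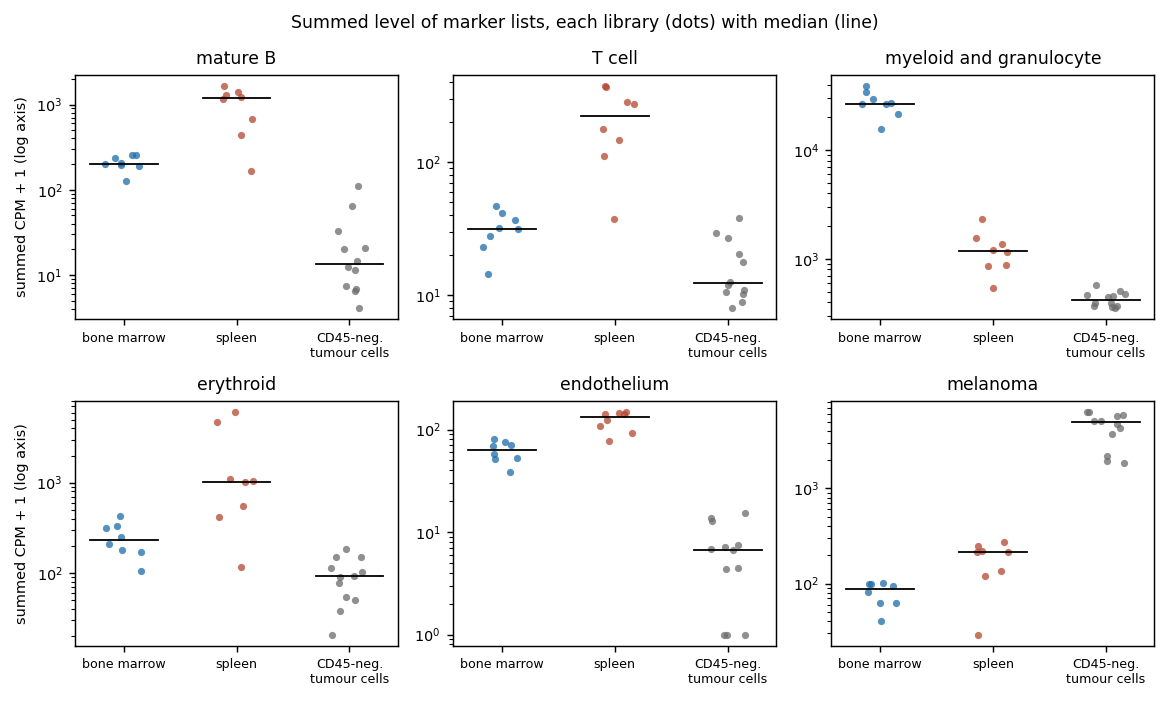
Summed level of 6 marker lists on a log axis (CPM plus 1), with a dot per library of bone marrow, spleen and CD45-negative tumour cells and a line at each median. Myeloid sums of bone marrow, 15640 to 39180 CPM, lie above those of spleen, 543 to 2349 CPM, and mature B sums of spleen reach 1665 CPM.

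Bone marrow was set against spleen to see in which organ each member was higher. Rag1, Dntt, Igll1, Rag2 and Cd93 were higher in bone marrow, Ebf1 was lower, and Vpreb1 and Vpreb3 did not pass the test. A gene passed at a Benjamini-Hochberg adjusted p below 0.05 in edgeR's quasi-likelihood test over all 22736 genes with a count in either organ. Of the 8 members 5 were higher and 1 lower, while of all genes in that test 20.8% passed, 8.42% higher and 12.4% lower in bone marrow. Of the 4239 genes that pass the usual filter on low counts 37.7% were called, 20.1% higher and 17.6% lower. The members' median log2 fold change was 1.92, and that of all genes was -0.20. The members' median was 1.34 with the 2 members that had no spleen count set at their ratio to a floor of 3 counts. None of the 8 members passed the filter on low counts (a minimum count of 10), so all values come from the fit without that filter. In whole organs, fewer cells of a type and less RNA per cell cannot be told apart.

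**Figure D2:**
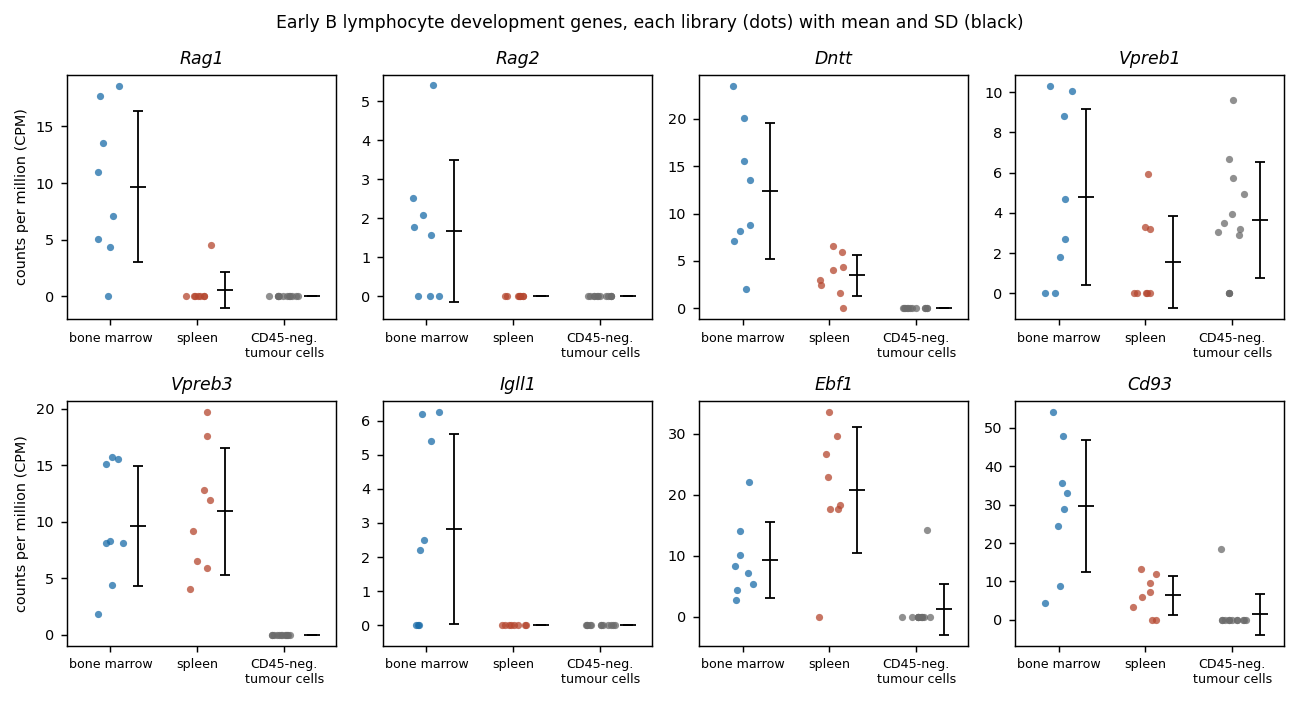
Level of each member in CPM, with a dot per library and the mean with SD in black, for bone marrow (n = 8), spleen (n = 8) and CD45-negative tumour cells (n = 12). Rag1, Dntt and Cd93 reach 18.6, 23.5 and 54.1 CPM in bone marrow, Ebf1 reaches 33.5 CPM in spleen, and Vpreb1 is the member with counts in most tumour libraries, 9 of 12.

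Among the recombination genes, Rag1 had 2, 5, 9, 4, 7, 0, 1 and 8 counts in bone marrow libraries 1 to 8, against a single count in spleen library 8 and none in the other 7 spleen libraries. Its level was between 0 and 18.6 CPM in bone marrow (median 9.05) and between 0 and 4.56 CPM in spleen (median 0). Every bone marrow library but library 6 held a count, and the groups overlapped through bone marrow libraries 6 and 7 and spleen library 8. The mean was 9.67 ± 6.66 CPM in bone marrow and 0.570 ± 1.61 CPM in spleen (SD, n = 8 each). The ratio of pooled CPM, 36 counts against 1, was 27.9, with a 95% counting interval of 4.70 to 1132. The fitted log2 fold change was 3.89 with an adjusted p of 3.716e-05, and 5.05 without spleen library 8.

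Rag2, whose product acts only together with that of Rag1, had 1, 2, 1, 1 and 1 counts in bone marrow libraries 1 to 5 and none in libraries 6, 7 and 8, nor in any spleen library. Its 6 counts, 1.715 CPM when pooled, stood at 1.55-fold the floor of spleen, taken as 3 counts over the 8 libraries (1.11 CPM). The counting interval of the bone marrow level, 0.629 to 3.73 CPM, reached below that floor, so the ratio is no lower bound. The adjusted p was 0.0461 in edgeR. That call rests on few reads: it was lost in 13 of the 16 fits that left out 1 library (adjusted p between 0.0368 and 0.109). It was also lost in 5 other settings, among them limma-voom, at an adjusted p of 0.283. DESeq2 gave no adjusted p for Rag2.

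Dntt had between 1 and 15 counts in every bone marrow library, against 0 to 2 counts in the spleen libraries. That was 2.07 to 23.5 CPM in bone marrow (median 11.2) and 0 to 6.55 CPM in spleen (median 3.48). The groups overlapped because bone marrow library 3 had 1 count. Bone marrow averaged 12.3 ± 7.17 CPM and spleen 3.49 ± 2.19 CPM (SD, n = 8 each), a pooled ratio of 3.87 (95% interval 1.87 to 9.01). The log2 fold change was 1.79 with an adjusted p of 0.0089 in edgeR. Without bone marrow library 5, which holds 15 of the 45 counts, the adjusted p was 0.0572.

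For the surrogate light chain, Igll1, which encodes its lambda5 part, had 1, 2, 3, 0, 4, 0, 0 and 1 counts in bone marrow libraries 1 to 8 and none in spleen. Its level was between 0 and 6.27 CPM in bone marrow (median 2.37), and its 11 counts stood at 2.84-fold the spleen floor. The adjusted p was 0.00496 in edgeR, 0.241 in DESeq2 and 0.101 in limma-voom. The 3 bone marrow libraries without a count overlap with spleen, where the gene was not detectable at these count totals.

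Vpreb1, the partner of Igll1 in the surrogate light chain, had 4, 1, 5, 1, 3, 0, 2 and 0 counts in bone marrow libraries 1 to 8, against 2, 0, 2, 0, 0, 0, 1 and 0 in spleen libraries 1 to 8. Its level was 0 to 10.3 CPM in bone marrow (median 3.70) and 0 to 5.94 CPM in spleen (median 0). Both organs held libraries with none. The pooled ratio of 16 to 5 counts was 2.48 with an interval of 0.868 to 8.65, and the log2 fold change of 1.17 had an adjusted p of 0.278 in edgeR.

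Vpreb3 was read in every library of both organs, 1 to 10 counts in bone marrow and 1 to 8 counts in spleen. It averaged 9.62 ± 5.30 CPM in bone marrow and 10.9 ± 5.62 CPM in spleen (SD, n = 8 each). The ranges lay over each other, 1.78 to 15.7 CPM (median 8.19) in bone marrow and 4.02 to 19.7 CPM (median 10.5) in spleen. The pooled ratio was 0.875 with an interval of 0.524 to 1.47, and the log2 fold change of -0.21 had an adjusted p of 0.781 in edgeR. Among Igll1, Vpreb1 and Vpreb3, only Igll1 passed the test, and the intervals of the ratio for the other 2 include 1.

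Ebf1 ran the other way. It had 4, 2, 4, 4, 9, 1, 5 and 2 counts in bone marrow libraries 1 to 8, against 9, 12, 21, 6, 4, 0, 7 and 4 in spleen libraries 1 to 8. The levels were 2.70 to 22 CPM in bone marrow (median 7.69) and 0 to 33.5 CPM in spleen (median 20.6). Every spleen library but library 6 stood above 7 of the 8 bone marrow libraries. Means were 9.26 ± 6.25 CPM in bone marrow and 20.8 ± 10.3 CPM in spleen (SD, n = 8 each), and the pooled ratio was 0.381 (95% interval 0.240 to 0.595). The log2 fold change was -1.32 with an adjusted p of 0.00671 in edgeR, and limma-voom gave an adjusted p of 0.0695. The mature B list, which shares no gene with the members, moved in the same direction, with 12 of its 14 measured genes lower in bone marrow and 0 higher, and its part in the level of Ebf1 was not tested.

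Cd93 was the member with most counts. It had 19, 20, 14, 20, 21, 9, 1 and 4 counts in bone marrow libraries 1 to 8, against 4, 3, 6, 2, 3, 0, 1 and 0 in spleen libraries 1 to 8. The levels were 4.40 to 54.1 CPM in bone marrow (median 30.9) and 0 to 13.2 CPM in spleen (median 6.63). Bone marrow libraries 7 and 8 fell within the spleen range and the other 6 lay above it. Bone marrow averaged 29.6 ± 17.2 CPM and spleen 6.39 ± 5.06 CPM (SD, n = 8 each), with a pooled ratio of 4.40 (95% interval 2.69 to 7.60) and a log2 fold change of 2.04 (adjusted p 7.864e-06 in edgeR).

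Other cell types that carry Cd93 differed between the organs as well. The endothelium list summed to between 37.9 and 80.5 CPM in bone marrow and between 76.4 and 147 CPM in spleen, with 5 of its 11 genes lower in bone marrow and 0 higher. Cldn5, a tight junction gene of vessels, had no count in bone marrow, and Cdh5, the cadherin of vessels, had 4 counts in bone marrow and 25 in spleen. Pecam1, the most abundant gene of the list, had 141 counts in bone marrow and 177 in spleen, and Egfl7, a secreted factor of vessels, had 49 in bone marrow and 17 in spleen; neither passed (adjusted p 0.0624 and 0.0967 in edgeR). The myeloid and granulocyte list had 13 of 14 genes higher in bone marrow, among them Ngp, a granule protein gene (3371 ± 887 CPM in bone marrow, 49.5 ± 70.6 CPM in spleen), and 1 lower, the macrophage growth factor receptor Csf1r, of which 873 exonic bases are shared with a coding gene of the other strand. Ltf, S100a8 and S100a9, further granulocyte genes, had log2 fold changes of 6.19, 5.76 and 5.55. In the progenitor list Gata2, a stem and progenitor cell factor, was higher (10.7 ± 3.55 CPM in bone marrow, 2.99 ± 5.47 CPM in spleen) and the other 7 genes did not pass, among them Kit, Sox4 and Hlf with log2 fold changes of 0.75, 0.89 and 1.90. The part of these cells in the Cd93 counts was not tested.

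Leaving out spleen libraries 6 and 8 together, or libraries 5 and 6 together, choices made after seeing the data, left 4 members higher and 1 lower in bone marrow. In both cases Rag2 was the member that no longer passed, with adjusted p-values of 0.0640 and 0.0652 in edgeR. No share of all genes called in these fits is given, so the counts show only which member calls were kept. Exact two-sided permutation tests of mean CPM over the 12870 ways of dividing the 16 libraries gave unadjusted p-values of 0.00264 for Rag1, 0.0256 for Rag2, 0.00295 for Dntt, 0.0256 for Igll1, 0.0194 for Ebf1 and 0.00311 for Cd93. Vpreb1 had an exact p of 0.0873 and Vpreb3 of 0.631.

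Summed over Rag1, Rag2, Dntt and Igll1, bone marrow libraries held between 3 and 27 counts, or 13.2 to 42.3 CPM, against 1 or 2 counts, or 1.60 to 6.55 CPM, in the spleen libraries. Each of these genes was called higher in these same libraries, so the gap between the sums adds nothing to those calls. Over all 8 members the sums were 48.7 to 113 CPM in bone marrow and 8.05 to 62.3 CPM in spleen, ranges that overlap. The lowest spleen sum was that of library 6.

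Levels were compared between genes as RPKM, which is the CPM per kilobase of exon. In bone marrow Vpreb3 stood first at 11.2 ± 6.17 RPKM, followed by Dntt at 5.39 ± 3.13, Cd93 at 4.44 ± 2.57, Vpreb1 at 4.0 ± 3.65, Rag1 at 1.46 ± 1.01, Igll1 at 1.31 ± 1.29, Ebf1 at 0.949 ± 0.640 and Rag2 at 0.487 ± 0.532 RPKM (SD, n = 8 each). Each gene lay within the summed SDs of its neighbour in this order. In spleen Vpreb3 was again first, at 12.7 ± 6.54 RPKM, then Ebf1 at 2.13 ± 1.05, Dntt at 1.52 ± 0.955, Vpreb1 at 1.29 ± 1.92, Cd93 at 0.958 ± 0.757 and Rag1 at 0.0863 ± 0.244 RPKM, with Rag2 and Igll1 at no count. In spleen the gap between Vpreb3 and Ebf1 was larger than their summed SDs, and the gaps after it were not.

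Genes that work beside the members were read in the same fit from lists. Like the members, the lists were chosen with earlier results of these data known. Of 16 transcription factors of B lineage entry, 3 were higher in bone marrow, 7 lower and 6 did not pass (median log2 fold change -0.51). Myb, a factor of dividing progenitors, was higher (133 ± 22.1 CPM in bone marrow, 9.61 ± 8.53 CPM in spleen; log2 fold change 3.79). So was Spi1, a factor of myeloid and early lymphoid cells (112 ± 22.01 CPM in bone marrow, 24.5 ± 14.1 CPM in spleen; log2 fold change 2.04). Pax5, which holds cells in the B lineage, was lower together with Ebf1 (20.7 ± 8.46 CPM in bone marrow, 78.7 ± 40.6 CPM in spleen; log2 fold change -1.99). Ikzf3, a factor of later B cells, was also lower, with a log2 fold change of -2.06.

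Most genes of the list on pre-B receptor signalling and assembly were lower in bone marrow, where Igll1 was higher. The list is not particular to the pre-B receptor, since it also holds Igkc and other light chains of the B cell receptor. Of 14 genes of receptor assembly and signalling, 10 were lower in bone marrow, 1 was higher and 3 did not pass (median log2 fold change -2.11); without spleen libraries 5 and 6, 0 were higher. Cd79b, a signalling chain of both the pre-B and the B cell receptor, averaged 29.2 ± 12.7 CPM in bone marrow and 157 ± 82.6 CPM in spleen. Ighm, the mu heavy chain with which the surrogate light chain pairs, averaged 756 ± 406 CPM in bone marrow and 2704 ± 1549 CPM in spleen. Igkc, the kappa light chain, had a log2 fold change of -2.09 and Bank1, an adaptor of B cell signalling, one of -2.78. The mature B list had a median of -2.73, with Cr2, the complement receptor of mature B cells, at 7.23 ± 5.02 CPM in bone marrow and 129 ± 57.6 CPM in spleen. Its surface markers Ms4a1 and Cd22 and the delta heavy chain Ighd had log2 fold changes of -2.995, -3.33 and -2.76. All 10 genes of the T cell list were lower in bone marrow too, with Cd4, Cd8a, Lck and Tcf7 at -3.82, -3.33, -2.55 and -3.22.

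Of 11 receptors and surface markers of stages, 3 were higher in bone marrow, 3 lower and 5 did not pass. Cxcr4, which holds precursors in marrow, and Spn, which encodes CD43 of pro-B and myeloid cells, were higher with log2 fold changes of 1.01 and 1.06. Ly6d, a marker of B lineage precursors that mature B cells keep, was lower at -2.82, as was Cd72 at -1.55, whose exons share 1423 bases with a coding gene of the opposite strand. Of 11 genes that act in or finish V(D)J recombination, 3 were higher, 1 lower and 7 did not pass (median 0.69). Hmgb2, a DNA bending protein that aids the RAG proteins, was higher (800 ± 122 CPM in bone marrow, 249 ± 197 CPM in spleen), as was Dclre1c, the Artemis nuclease, at a log2 fold change of 1.14, and Xrcc6, the Ku70 subunit, at 0.69. Prkdc, the kinase of end joining, was lower at -1.32. Of 8 genes of large pre-B cells and the cell cycle, 5 were higher, 1 was lower and 2 did not pass (median 0.81). Top2a, a topoisomerase of dividing cells, Ccnb1, a mitotic cyclin, and Ccnd3, the D-type cyclin of pre-B cells, were higher at 1.25, 1.35 and 0.86, and Ccnd2, another D-type cyclin, was lower at -1.10. Spleen libraries differed widely on this list: it summed to between 929 and 1501 CPM in bone marrow, against 3206 CPM in spleen library 6, 1221 CPM in spleen library 5 and at most 563 CPM in the other 6 spleen libraries. Without spleen libraries 5 and 6, 6 of its genes were higher, 1 was lower and 1 did not pass (median 1.83), and the counts of the V(D)J list stayed at 3, 1 and 7. Of Dclre1c, Xrcc6 and Ccnd3, 357, 344 and 361 exonic bases are shared with a coding gene of the other strand, and Ccnb1, Hmgb2, Prkdc, Top2a and Ccnd2 share none.

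**Figure D3:**
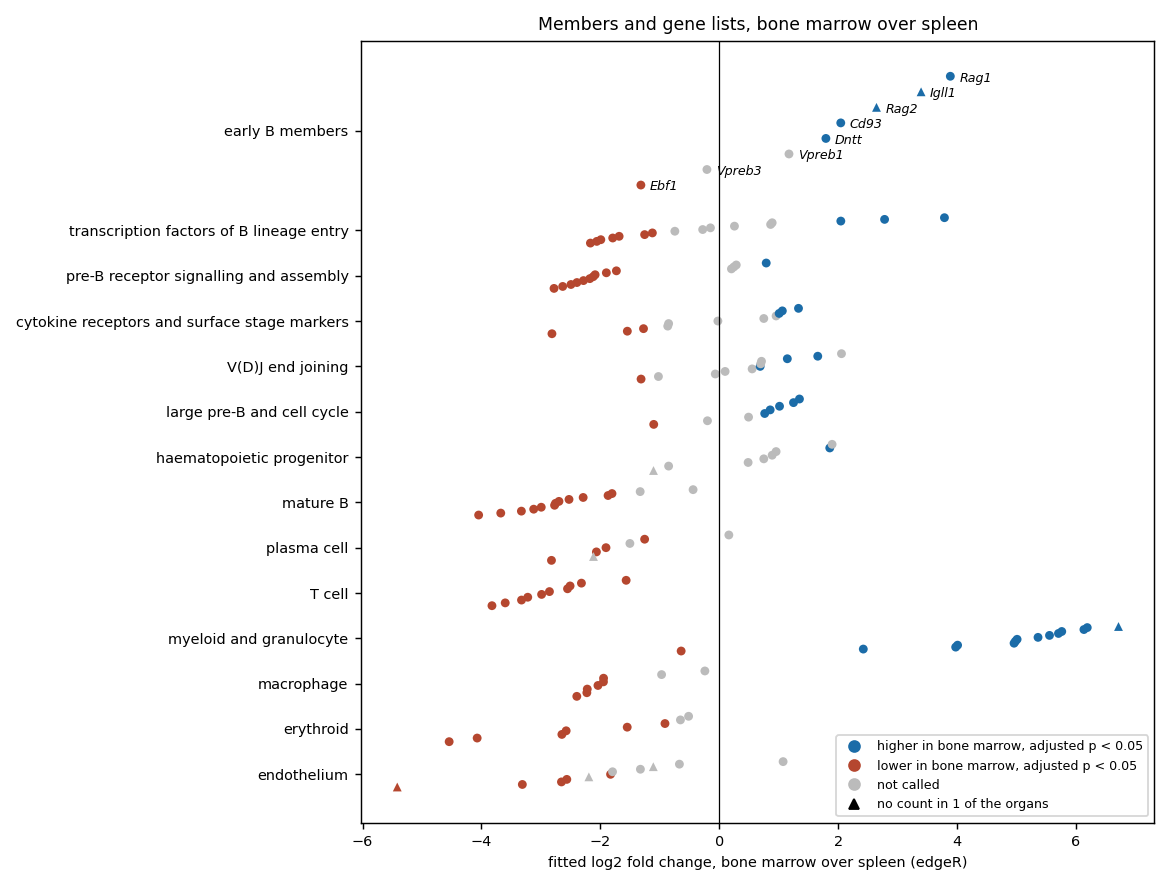
Fitted log2 fold change, bone marrow over spleen, of the 8 members (top) and of the genes of 13 lists, a symbol per gene, blue where higher, red where lower and grey where the test was not passed; triangles mark genes without a count in 1 organ, whose fitted value is no bound. Of the members, 5 are blue and Ebf1 is red, while 12 of 14 mature B genes are red and 13 of 14 myeloid genes are blue.

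Among the 8 bone marrow libraries no pair of members passed an adjusted test for rising and falling together. Because no member passed the filter, all 8 entered, as 28 pairs of TMM-scaled log2 CPM. Pearson's r ran between -0.39 and 0.81, was positive in 20 pairs, and passed Benjamini-Hochberg adjustment over the pairs in 0 by the exact permutation test (smallest adjusted p 0.321, and 0.233 for Spearman's rho). With an unadjusted exact p below 0.05 there were 2 pairs. Rag2 and Cd93 had r = 0.81 and rho = 0.88 (exact unadjusted p 0.0115 and 0.00833), and r = 0.96 without the 2 libraries farthest from the median. Vpreb1 and Ebf1 had r = 0.73 and rho = 0.72 (exact unadjusted p 0.0413 and 0.0525), and r = 0.95 without the 2 farthest. Rag1 with Rag2, the gene pair of the recombinase, had r = 0.31 (exact p 0.456, adjusted 0.994), and Vpreb1 with Igll1, the pair of the surrogate light chain, r = 0.29 (exact p 0.473, adjusted 0.994). Between the bone marrow libraries, Rag2 and Igll1 varied about as counting error would, with a chi-square per degree of freedom of 0.704 and 1.12. At a few counts per library even r = 0.81 did not pass adjustment. Whether the members vary together was therefore not settled.

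**Figure D4:**
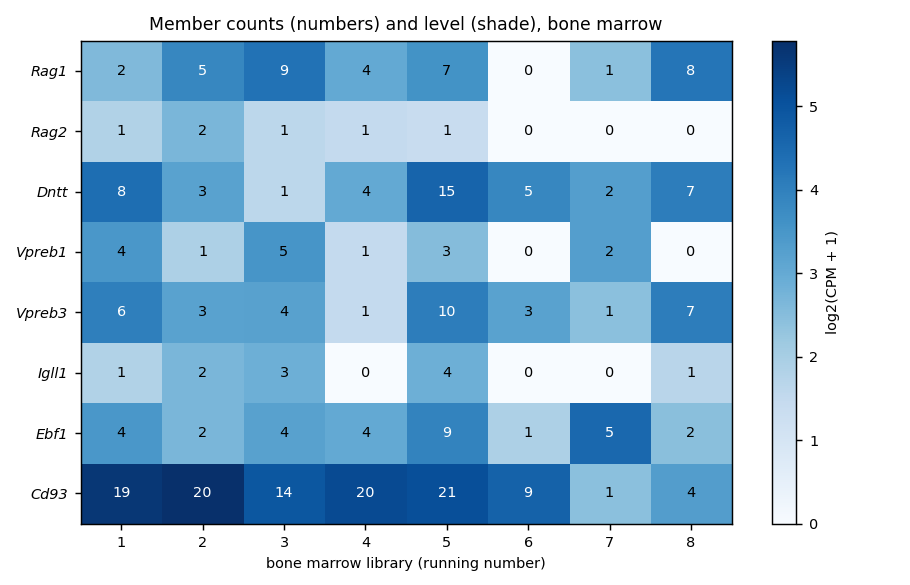
Counts (numbers) and log2(CPM + 1) (shade) of each member in the 8 bone marrow libraries. Library 5, which has the largest count total (637985), has the most counts of Dntt, Vpreb3, Igll1, Ebf1 and Cd93. In CPM, Cd93 is highest in library 2 (54.1) and Ebf1 in library 7 (22). Library 6 has no count of Rag1, Rag2, Vpreb1 and Igll1, and Cd93 falls to 1 and 4 counts in libraries 7 and 8.

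The CD45-negative tumour cells, a sort meant to leave leukocytes out, gave the level of the members outside lymphoid organs. Against them, 7 of the 8 members were higher in bone marrow, in a test where 41.7% of 22509 genes passed, 22.8% higher and 18.8% lower. Of the 4585 filtered genes 73.3% passed, 38.4% higher and 34.9% lower. The members' median log2 fold change was 4.05, and that of all genes 0.07. The members' median was 3.20 with 5 of them, those without a tumour count, set at their ratio to a floor of 3 counts. Rag1, Rag2, Dntt, Vpreb3 and Igll1 had no count in any of the 12 tumour libraries, where the floor of 3 counts is 0.884 CPM. Pooled bone marrow stood at 11.6-fold that floor for Rag1 (adjusted p 5.2e-09 in edgeR), 14.5-fold for Dntt (8.369e-11) and 11.3-fold for Vpreb3 (7.365e-09). It stood at 3.55-fold the floor for Igll1 (4.313e-04) and 1.94-fold for Rag2 (0.0122). These ratios leave out the counting error of bone marrow. For Rag2 the counting interval of the bone marrow level, 0.629 to 3.73 CPM, reached below the tumour floor. Dntt and Vpreb3, with a count in every bone marrow library, were separated fully from the tumour libraries. So were genes of the lists such as Pax5, Cd79b and Ngp, while Ikzf3 and Cr2 were not. The share of all genes separated in this way is not given. With limma-voom, Igll1 and Rag2 no longer passed, at adjusted p-values of 0.164 and 0.488. Igll1 did not pass in DESeq2 either, at 0.176, and DESeq2 gave no adjusted p for Rag2. Rag2 and the list genes Cd83 and Trac, each at 6 bone marrow counts and 0 tumour counts, all had an unadjusted p of 0.00417 in edgeR. Their SDs in bone marrow were 1.82, 2.90 and 1.76 CPM.

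Ebf1 and Cd93 each rested on 1 tumour library. All 3 counts of Ebf1 were in tumour library 9, which also had the highest stroma sum, 1691 CPM. The 1 count of Cd93 was in tumour library 4, which had the lowest count total. Bone marrow exceeded tumour cells by a pooled ratio of 10.0 for Ebf1 (95% counting interval 3.13 to 51.2), with a log2 fold change of 2.89 and an adjusted p of 3.628e-05 in edgeR. Without tumour library 9 that log2 fold change was 4.71. For Cd93 the ratio of 108 counts to 1 was 105 (interval 18.4 to 4173), with a log2 fold change of 5.55 and an adjusted p of 4.857e-22 in edgeR, and 6.47 without tumour library 4. In the endothelium list, 6 of 11 genes had no count in tumour cells, and its sum was at most 14.3 CPM there.

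Vpreb1 was the exception among the tumour cells. It had 2, 3, 1, 0, 1, 2, 1, 1, 0, 0, 1 and 2 counts in tumour libraries 1 to 12, so that 9 of 12 libraries held it, while its complex partner Igll1 had none. Its level was 0 to 10.3 CPM in bone marrow (median 3.70) and 0 to 9.61 CPM in tumour cells (median 3.35), ranges that lie over each other. The means were 4.80 ± 4.37 CPM in bone marrow (n = 8) and 3.63 ± 2.89 CPM in tumour cells (SD, n = 12). The pooled ratio was 1.11 (95% interval 0.507 to 2.45), and the log2 fold change of 0.16 had an adjusted p of 0.827 in edgeR. Vpreb1 shares 108 exonic bases with Top3b, a topoisomerase gene of the opposite strand. The part of Top3b in these counts was not tested.

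Spleen against tumour cells gave 4 members higher and 0 lower of the 6 with a count, where 34.9% of 23186 genes passed, 20.7% higher and 14.3% lower. Of the 3879 filtered genes 64.2% passed, 33.2% higher and 31% lower. This comparison shares its tumour libraries with the one above and its spleen libraries with the first. In spleen, Vpreb3 stood at 12.9-fold the tumour floor (adjusted p 4.279e-08 in edgeR) and Dntt at 3.75-fold (6.698e-04). Ebf1 was 26.3-fold higher in pooled CPM (interval 8.59 to 131, adjusted p 1.849e-10 in edgeR) and Cd93 23.8-fold (interval 3.78 to 988, adjusted p 1.17e-04 in edgeR). The call of Dntt was lost in DESeq2 (adjusted p 0.0572), and the exact permutation test of Cd93 gave an unadjusted p of 0.0544. Without tumour library 9 the log2 fold change of Ebf1 was 5.87, against 4.11 with it. Without tumour library 4 that of Cd93 was 4.19, against 3.34 with it. Vpreb1 had 5 counts in spleen and 14 in tumour cells, a ratio of 0.447 with an interval of 0.126 to 1.31 (adjusted p 0.262 in edgeR). Rag1, Rag2 and Igll1 were at or under the floor of 3 counts in both groups. By mean CPM the order of the groups was thus bone marrow, spleen, tumour cells for Dntt and Cd93, spleen, bone marrow, tumour cells for Ebf1 and for Vpreb3, and bone marrow, tumour cells, spleen for Vpreb1. In edgeR the neighbours in the order of Vpreb1, and spleen and bone marrow for Vpreb3, did not pass the test. For Cd93, spleen (6.39 ± 5.06 CPM) and tumour cells (1.54 ± 5.33 CPM) differed by less than their summed SDs.

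Genotype entered for 1 member. Of the 11340 genes in the authors' deposited table, which compares the genotypes in sorted tumour cells, Vpreb1 was the member present. The authors' deposited table lists it with a log2 fold change of -0.41, a mean log2 CPM of 3.43 and an adjusted p of 0.819; the direction of the subtraction is not stated. For Top3b, its neighbour on the opposite strand, the authors' deposited table lists -0.53 with an adjusted p of 0.650.

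Over the 28 libraries, the 10 coding genes most like the mean standardised log2 CPM of the members, out of 15772 compared, had Pearson's r between 0.89 and 0.92. The points share organ and depth, and no p is given. The first was Clec7a, the beta-glucan receptor of myeloid cells, with 157 counts in bone marrow, 33 in spleen and 0 in tumour cells (r = 0.92). It was followed by Tmem8 (0.92), Ppm1m (0.91), Ffar2, a receptor for short-chain fatty acids (0.91), and Ncf1, a subunit of the phagocyte oxidase (0.89), of which 408 exonic bases are shared with a coding gene of the other strand. Clec12a, Ubash3a, Plcb2, Serpinb1a and Tmem154 came next, each at 0.89. No likeness within a single organ was computed for these genes.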

How the data were processed

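RNA sequencing libraries were made with a stranded mRNA kit, per the labels' protocols. HISAT2, edgeR, GRCm38 and mm10 are named in the submitters' processing notes. For the counting program, its strand setting and the annotation, nothing is given in the sources used here. The authors deposited whole-number counts per gene. Their second deposited table, which covers tumour cells, holds, for each gene, a mean log2 CPM, a log2 fold change, an F score, a p-value and an adjusted p-value, per the file headers.

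Columns were assigned to organs by name. Of 48 per-sample columns, 20 (lymph node) were not used, and 1 of 6 planned edgeR comparisons was run. Both tumour comparisons were added after the data had been seen. Genes were tested with edgeR 4.0.16 (TMM, quasi-likelihood F test, R 4.3.3) on the 2 groups compared, with Benjamini-Hochberg adjustment over all genes tested. The filter (filterByExpr, minimum count 10) left 0 of 8 members, so members and lists were read from the planned fit without it. Alternatives used DESeq2 1.42.0, limma 3.58.1 (voom), other scaling, other filters, left-out libraries and exact permutation (Python 3.11.15, scipy 1.17.1). CPM were taken over the library total. Pooled ratios carry exact 95% intervals, and intervals and floors (3 counts over a group) cover counting error only. A ratio to a floor leaves out the counting error of the group set against it. The fit was tested on simulated data. Exon overlaps came from GENCODE M21 on GRCm38, where 99.53% of the gene identifiers were found, and promoters from RefSeq GRCm38.p6. No 2 libraries of a group agreed within sampling noise (chi-square per degree of freedom at least 1.37).

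Genes were named from the 8 members, the 4 genes with the smallest p of each list described, and the 10 genes most like the members. Csf1r, Cd83, Trac and the endothelium genes were named after their values were seen. Members and lists were chosen with earlier results of these data known.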

Additional observations from a re-analysis of the deposited data

Results flagged for a closer look

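In bone marrow and spleen, 14 sets of member values held a count, and in 2 of them a library met the gap rule of Dixon's test. Its usual rate of about 1 flag in 20 assumes a normal spread, which sets of a few counts do not have. A single count among libraries without any meets the rule whatever its size, so no conclusion is drawn from the flags. The 12 tumour libraries, more than that test was used for, were not looked at in this way. Rag1 in spleen library 8 was at 4.56 CPM, a single count, where the other 7 spleen libraries had none. Rag2 in bone marrow library 2 was at 5.41 CPM, from 2 counts, where the other 7 bone marrow libraries had 1 or none.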

How the results depend on the processing

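Called genes numbered 1598 for bone marrow over spleen, 3362 for bone marrow over tumour cells and 2490 for spleen over tumour cells. In the same order these were 4726, 9381 and 8101 without a filter (in the first, 1915 higher and 2811 lower), 3415, 7413 and 5889 with a minimum count of 1, and 860, 1752 and 1113 without genes facing coding exons on the other strand. In the same order the share of tested genes called was 37.7%, 73.3% and 64.2% with the filter and 20.8%, 41.7% and 34.9% without. The number of genes tested changed as well, and its part in these changes was not tested. Leaving out 1 library gave 1545 to 2096, 3180 to 3532 and 2348 to 2799. Members called were 6 for bone marrow over spleen, 3 with limma-voom and 4 to 6 without 1 library. They were 7 for bone marrow over tumour cells, 2 with a minimum count of 1 and 7 in each fit without 1 library. That minimum count left Rag1, Rag2, Dntt, Vpreb3 and Igll1 untested, so their calls were not lost in a test. Members called were 4 for spleen over tumour cells, 2 with a minimum count of 1, which left Rag1, Dntt and Cd93 untested, and 4 in each fit without 1 library. For the other settings no share of all genes stands beside these member counts, which show only how many members were called. Vpreb1, bone marrow over tumour cells, was not called and changed sign to a log2 fold change of -0.28 with limma-voom, -0.02 without bone marrow replicate 1 and -0.12 without bone marrow replicate 3, in a range of -0.12 to 0.46 over the fits without 1 library. Rag1, spleen over tumour cells, was not called and changed sign to -0.057 with limma-voom. The cause was not tested. Vpreb1, spleen over tumour cells, passed with limma-voom alone (adjusted p 0.0429), Dntt, spleen over tumour cells, missed with DESeq2 (adjusted p 0.0572), and Cd93, spleen over tumour cells, missed in the exact permutation test (unadjusted p 0.0544). In bone marrow over spleen, Rag1 and Cd93 kept their call in all 10 other settings and all 16 fits without 1 library. Bone marrow and spleen columns share running numbers, which were not taken as pairing them, since deviations of same-numbered libraries correlated above 0.1 in 5 of 8 numbers and not in all (between -0.03 and 0.48). That 5 of 8 correlated best with their own number is a hint from the data, not the design. With the replicate block, 1748 genes and 4 members were called, with Rag2 (adjusted p 0.330) and Igll1 (adjusted p 0.105) not called in edgeR. Planned comparisons with lymph node and by genotype were not run, nor was the protein comparison. Few counts limit the members: in a single library, 1 count is the level of Rag2 and Igll1.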
